A study of Mus musculus with 7 samples.

Results

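Androgens are made from cholesterol in the Leydig cells of the testis, and 8 genes of that synthesis and its control were followed in mouse sperm RNA: Cyp17a1, Cyp11a1, Star, Hsd3b6, Hsd3b1, Hsd17b3, Lhcgr and Cyp19a1. They were found through the gene symbols of the platform annotation, each probe set apart. Of the 23493 probe sets with 1 gene symbol, which cover 22154 genes, 7 carried a symbol of this list and covered 6 of the 8 genes. Cyp11a1 had a pair of them, and each of the other 5 genes had 1. The annotation used here pairs no probe set with Lhcgr, the luteinizing hormone receptor, or with Cyp19a1, the aromatase that turns androgens into oestrogens, so both were not analysed here. No probe set shared by several genes carried one of the 8 symbols.

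The study measured RNA of pooled sperm on 7 expression arrays. C57BL/6 mice gave 1 array, from a pool of 5 males. The other 6 arrays came from generation 3 of a line that descends from 2 female founders, made by injecting a KDM1A construct into C57BL/6 zygotes and kept by mating heterozygous males to C57BL/6 females. TG3 males carried the transgene and nonTG3 males were their littermates without it, and each had 3 arrays with a pool of 4 males per array. KDM1A is a histone lysine demethylase. The sources used here do not name the promoter that drives the transgene or the ages of the males. The labels leave unsaid whether pools shared males, and the p-values cover no more than the spread among these pools. Below, "the line" means the 6 TG3 and nonTG3 arrays together.

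Steroid synthesis starts when StAR, the product of Star, moves cholesterol to the inner mitochondrial membrane, where CYP11A1 cleaves its side chain to give pregnenolone. CYP17A1, in the endoplasmic reticulum, turns the products into androgen precursors, enzymes of the HSD3B family convert them to their active form, and HSD17B3 makes testosterone. Luteinizing hormone drives these steps through its receptor on Leydig cells. Sperm are not the classical site of this pathway.

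The values are log2 intensities made by RMA, which corrects background, brings the arrays to a common distribution and sums up each probe set. The median of an array lay between 3.52 and 3.61. Whether a reading below that lies above background was not measured, so log2 differences of such readings are given as differences between readings and not as folds of RNA. The labelled cell type was looked at with 20 probe sets of spermatid and sperm genes, which averaged 8.81 on the C57BL/6 array and 7.64 to 7.90 on the arrays of the line. This list holds genes of both, so it cannot tell sperm from spermatids. Lists of spermatocyte and Sertoli cell markers, given below, averaged 5.54 and 4.52 on C57BL/6. On the line they averaged 3.81 to 4.37 and 3.55 to 3.78. The 10 probe sets of mitochondrially encoded genes averaged 11.24 on C57BL/6, but 8.80 on TG3 replicate 1 and 8.91 on nonTG3 replicate 3, while the line's other 4 arrays had 9.98 to 11.55. Results are therefore also given without these replicates.

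Androgen synthesis RNAs were lower in the line than in the C57BL/6 pool for 5 of the 6 genes measured: Cyp17a1, Cyp11a1, Star, Hsd3b6 and Hsd17b3. For these genes 5 probe sets were called lower by limma at an adjusted p under 0.05, none was called higher, and the other 2 probe sets, the second of Cyp11a1 and that of Hsd3b1, were not called. In pooled sperm, fewer cells of a type and less RNA per cell cannot be told apart. Of all 23493 probe sets tested, 2.85% were called lower and 0.170% higher. The median difference of the 7 probe sets was -1.17, against 0.0366 over all probe sets tested. On 5 of the 7 the C57BL/6 array lay above each of the 6 arrays of the line, which held for 14.3% of all probe sets. These are the 5 called lower, and the call rests on the same C57BL/6 array, so this is no separate support. A mean at least 1 log2 unit below C57BL/6 was found for the same 5 of the 7, and for 3.86% of all probe sets. The C57BL/6 group is 1 array, so its own spread is unknown, and the test assumes that it varies like the line.

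**Figure D1:**
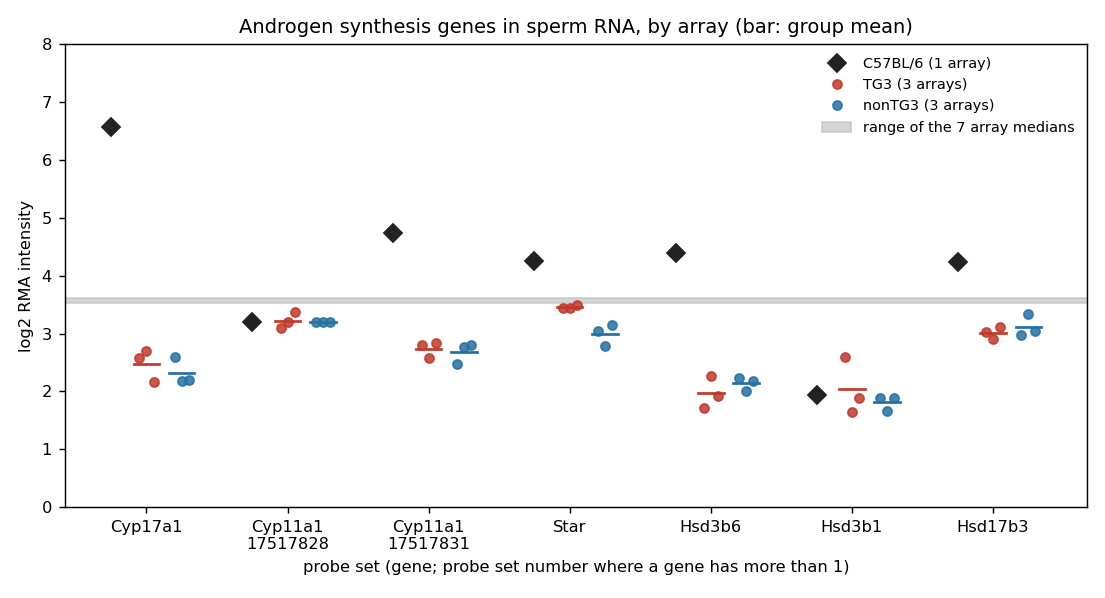
Log2 RMA intensity (vertical axis) of the 7 probe sets on the 7 arrays, with C57BL/6 as a diamond, TG3 and nonTG3 as points and their group means as bars. On Cyp17a1, the Cyp11a1 probe set 17517831, Star, Hsd3b6 and Hsd17b3 the C57BL/6 array lies above the grey range of array medians (3.52 to 3.61) and all 6 arrays of the line lie below it.

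The first step, cholesterol entry into the mitochondrion, is read by Star (probe set 17500195). It read 4.25 on the C57BL/6 array. The TG3 readings, replicates 1 to 3, were 3.44, 3.44 and 3.50, and the nonTG3 readings, in the same order, 3.04, 2.79 and 3.15. All arrays of the line were below C57BL/6, and the TG3 arrays lay above the nonTG3 arrays without overlap. The line was lower by -1.02 ± 0.15 (SE of the limma estimate) with a limma adjusted p of 0.0286. Against C57BL/6, nonTG3 was lower by -1.25 ± 0.16 (SE; limma adjusted p = 0.0221), while TG3 differed by -0.79 ± 0.16 (SE) and was not called (limma adjusted p = 0.0865). The line's call was lost without TG3 replicate 1, 2 or 3 or nonTG3 replicate 1, at a limma adjusted p of 0.0735 to 0.0859 and a difference of -1.03 to -1.02.

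Side-chain cleavage, the step that commits cholesterol to steroids, is read by both probe sets of Cyp11a1, which differed from each other. Probe set 17517831 read 4.74 on C57BL/6. In the order of their replicates, the TG3 arrays read 2.81, 2.57 and 2.84 and the nonTG3 arrays 2.48, 2.76 and 2.81. The C57BL/6 array stood 1.90 above the highest array of the line, whose own readings spanned 0.36. The difference was -2.03 ± 0.17 (SE) with a limma adjusted p of 0.00552, and the call was kept in all 6 fits with a single array of the line removed. Probe set 17517828 read 3.20 on C57BL/6, 3.09, 3.20 and 3.38 on TG3 and 3.20 on all 3 nonTG3 arrays. Its value was exactly equal on 5 of the 7 arrays, which RMA's summary step can give. It differed by 0.01 with a 95% confidence interval of -0.31 to 0.33 (limma adjusted p = 1), and all 7 arrays read it below their median. The sources used here do not say which parts of the transcript either probe set covers, and their difference cannot be tied to an isoform.

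Cyp17a1 (probe set 17365410), which makes the androgen precursors and in the testis is a marker of Leydig cells, differed most. It read 6.56 on C57BL/6. The TG3 readings were 2.57, 2.70 and 2.16 and the nonTG3 readings 2.60, 2.18 and 2.19, each in replicate order. The gap between C57BL/6 and the highest array of the line was 3.86, and the line's readings spanned 0.55. C57BL/6 read it 3.05 above its array median, while all 6 arrays of the line read it below theirs. The difference of -4.16 ± 0.26 (SE; limma adjusted p = 0.00293) ranked 7 among all 23493 differences of the line from C57BL/6, counted from the lowest. TG3 and nonTG3 taken apart differed from C57BL/6 by -4.09 ± 0.27 and -4.24 ± 0.27 (SE; limma adjusted p of 0.00434 and 0.00412), and these comparisons share the C57BL/6 array.

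Hsd3b6 and Hsd3b1 encode dehydrogenases that carry out the same conversion on the way to active steroids, and Hsd3b6 is the form known from adult Leydig cells. Hsd3b6 (probe set 17408345) read 4.39 on C57BL/6. Its TG3 readings were 1.71, 2.27 and 1.92 and its nonTG3 readings 2.23, 2.01 and 2.18, in replicate order. The highest array of the line lay 2.12 below C57BL/6. Its difference of -2.33 ± 0.22 (SE) had a limma adjusted p of 0.00702, and the call was kept in all 6 fits without 1 array of the line. Hsd3b1 (probe set 17408352) read 1.94 on C57BL/6. It read 2.59, 1.64 and 1.89 on TG3 and 1.89, 1.67 and 1.89 on nonTG3. C57BL/6 lay within the range of the line, and all 7 arrays read this gene below their median. Its difference was -0.01 with a 95% confidence interval of -0.86 to 0.84 (limma adjusted p = 1), an interval wide enough to hold a change of most of a log2 unit either way.

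The wider family was read alongside, because its members are close in sequence and probes of one can bind RNA of another. In the RefSeq gene table of GRCm38.p6 Hsd3b6 and Hsd3b1 are direct neighbours among protein-coding genes, and Hsd3b2, Hsd3b3, Hsd3b4 and Hsd3b5 lie beside them. Hsd3b2, Hsd3b3 and Hsd3b5 read 1.75, 1.97 and 1.67 on C57BL/6, and 1.53 to 2.34, 1.44 to 2.37 and 1.22 to 2.04 across the line. None of these 3 was called (limma adjusted p = 1 for each), and C57BL/6 lay within the line's range on all of them. Hsd3b7, an enzyme of bile acid synthesis, read 3.57 on C57BL/6 and 3.73 to 3.98 in the line (limma adjusted p = 0.731). Within the family the C57BL/6 array thus stood above the line on Hsd3b6 and on no other of the 6 probe sets. A further 2 probe sets are annotated to several genes of the cluster and were not used.

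**Figure D2:**
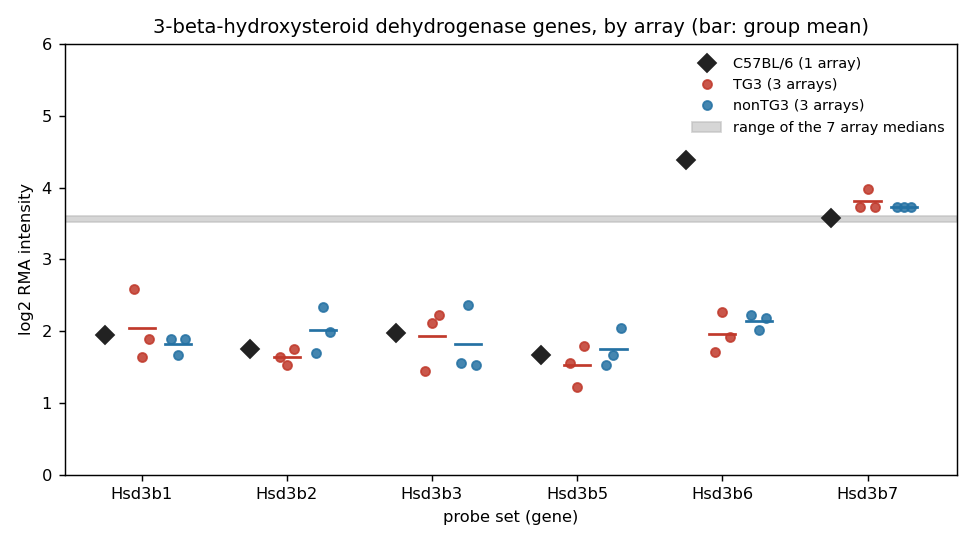
Log2 RMA intensity (vertical axis) of the 6 Hsd3b probe sets on the C57BL/6 array (diamond) and on the 3 TG3 and 3 nonTG3 arrays (points, with bars for group means). C57BL/6 reads Hsd3b6 at 4.39 against at most 2.27 in the line, while Hsd3b1, Hsd3b2, Hsd3b3 and Hsd3b5 read at most 2.59 on any array.

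Stretches upstream of the genes are printed because both Cyp11a1 and Hsd3b6 were lower in the line and Hsd3b1, the neighbour of Hsd3b6, was not called. They are the 250 bases before each annotated start, 5′ to 3′ on the gene's strand, from the RefSeq promoter table of GRCm38.p6. It held 6 of the 8 genes in 9 windows. No window was held for Cyp17a1 or Star, which were also called lower, so they could not be searched for motifs. A search on both strands covered 3 motifs, which are in capitals: AGGTCA, the core bound by SF-1 and other nuclear receptors, GATAA, a core bound by GATA factors, and TATAAA, the TATA box.
Cyp11a1 chr9:57997774-57998023 (+): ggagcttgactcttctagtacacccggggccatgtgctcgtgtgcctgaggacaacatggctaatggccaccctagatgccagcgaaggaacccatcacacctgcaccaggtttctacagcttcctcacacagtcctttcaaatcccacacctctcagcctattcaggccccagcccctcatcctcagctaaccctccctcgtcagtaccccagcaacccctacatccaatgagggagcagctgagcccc
Cyp11a1 chr9:58014702-58014951 (+): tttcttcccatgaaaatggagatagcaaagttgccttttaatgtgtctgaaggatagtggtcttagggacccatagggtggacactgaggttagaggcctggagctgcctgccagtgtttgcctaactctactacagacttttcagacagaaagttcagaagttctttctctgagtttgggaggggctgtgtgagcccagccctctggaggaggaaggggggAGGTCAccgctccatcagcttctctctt
Hsd3b6 chr3:98814444-98814693 (-): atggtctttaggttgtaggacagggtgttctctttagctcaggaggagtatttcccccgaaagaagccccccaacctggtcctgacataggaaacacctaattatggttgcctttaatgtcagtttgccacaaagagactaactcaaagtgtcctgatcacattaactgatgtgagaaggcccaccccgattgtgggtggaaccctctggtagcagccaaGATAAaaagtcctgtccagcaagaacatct
Hsd3b1 chr3:98859795-98860044 (-): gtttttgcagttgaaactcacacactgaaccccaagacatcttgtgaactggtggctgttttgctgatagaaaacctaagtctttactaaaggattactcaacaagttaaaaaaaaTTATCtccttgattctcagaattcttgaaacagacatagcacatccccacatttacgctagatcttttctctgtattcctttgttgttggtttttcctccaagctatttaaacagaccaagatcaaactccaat
Of these 4 windows, the second of Cyp11a1 held AGGTCA, with its first base 28 bases before the start. That of Hsd3b6 held GATAA at 30 bases before the start, and that of Hsd3b1 held GATAA on the other strand at 134 bases. No motif overlapped another, and no window of these 4 held TATAAA. The window of Hsd17b3, which was also called lower, is not printed and held none of the motifs. AGGTCA was also found upstream of Lhcgr and Cyp19a1, which were not measured. Across all 32851 windows of the table, 14.0% held AGGTCA, 22.6% GATAA and 12.4% TATAAA. A match describes the letters in these windows and is not a measurement of binding. The arrays do not tell which start of Cyp11a1 was in use.

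The last step, testosterone from androstenedione, is read by Hsd17b3 (probe set 17293635). It read 4.23 on C57BL/6. The TG3 arrays read 3.02, 2.91 and 3.12 and the nonTG3 arrays 2.97, 3.34 and 3.04, in replicate order. All 6 arrays of the line lay at least 0.89 below C57BL/6, and TG3 and nonTG3 overlapped. The difference was -1.17 ± 0.17 (SE) with a limma adjusted p of 0.0272. The call was lost without TG3 replicate 1, 2 or 3 or nonTG3 replicate 1 or 3, at a limma adjusted p of 0.0631 to 0.0798 and a difference of -1.19 to -1.13.

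Taken separately, TG3 had 4 of the 7 probe sets called lower than C57BL/6 and nonTG3 had 5, where 2.41% and 2.43% of all probe sets were called lower. The 4 were Cyp17a1, Cyp11a1 (17517831), Hsd3b6 and Hsd17b3, and nonTG3 had Star in addition. These comparisons share the C57BL/6 array and a common estimate of spread. With 1 array of the line left out, the count of the line became 3 without TG3 replicate 1, 2 or 3 or nonTG3 replicate 1, and 4 without nonTG3 replicate 3. The count of nonTG3 was 3 with any 1 array left out: Hsd17b3 lost its call each time (limma adjusted p of 0.0501 to 0.136), and so did Star without TG3 replicate 1, 2 or 3 or nonTG3 replicate 1 and Hsd3b6 without nonTG3 replicate 2 or 3. That of TG3 was 3 to 4. Leaving out both TG3 replicate 1 and nonTG3 replicate 3, the arrays of low mitochondrial RNA, gave 0 called members and 0 called probe sets in all. The differences of the line were then -4.15 for Cyp17a1, -2.08 for Cyp11a1 (17517831), -2.28 for Hsd3b6, -1.15 for Hsd17b3 and -1.06 for Star, at limma adjusted p of 0.0908, 0.0948, 0.0946, 0.193 and 0.132.

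**Figure D3:**
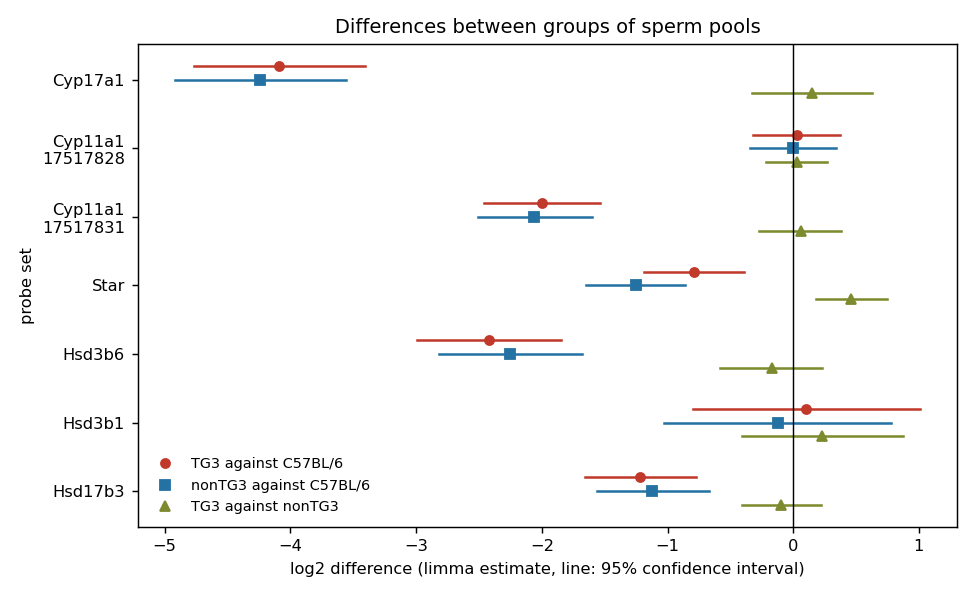
Log2 differences (horizontal axis) estimated by limma for TG3 against C57BL/6, nonTG3 against C57BL/6 and TG3 against nonTG3, with 95% confidence intervals as lines. The intervals of both comparisons with C57BL/6 lie below 0 for Cyp17a1, Cyp11a1 (17517831), Star, Hsd3b6 and Hsd17b3, and for TG3 against nonTG3 the interval of Star alone lies off 0.

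Between carriers of the transgene and their littermates no member was called. limma called 0 of the 7 probe sets, as it called 0% of all 23493, and 1 of the 7, Star, had an unadjusted p under 0.05, against 559 of all. Mean Star was 3.46 ± 0.03 for TG3 and 2.99 ± 0.19 for nonTG3 (SD, n = 3 each). The difference was 0.46 with a 95% confidence interval of 0.18 to 0.75 and a limma adjusted p of 0.923. A two-sided exact permutation test gave p = 0.1 for Star, which is the smallest p that 3 against 3 arrays allow. Every TG3 array lay above every nonTG3 array on Star alone of the 7, and on 2.47% of all probe sets. Mean Cyp17a1 was 2.48 ± 0.28 for TG3 and 2.32 ± 0.24 for nonTG3 (SD, n = 3 each), with an interval of -0.33 to 0.63 for the difference. The interval was -0.58 to 0.23 for Hsd3b6, -0.27 to 0.38 for Cyp11a1 (17517831), -0.41 to 0.22 for Hsd17b3 and -0.41 to 0.87 for Hsd3b1. All members read below the array medians in both TG3 and nonTG3, which limits what their comparison can show.

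Of the 114 probe sets on 5 lists of other pathway genes, 2 were called lower and 0 higher. That is 1.75% lower, near the share called lower among all probe sets given above. An unadjusted p under 0.05 in the line against C57BL/6 was found for 2877 of all 23493 probe sets, or 12.2%, and the unadjusted counts of the lists are to be read against that share. Of 18 genes of cholesterol supply, read by 19 probe sets, limma called 0, and 1 had an unadjusted p under 0.05. The smallest p belonged to Atad3a, a mitochondrial membrane ATPase, and Sqle, a sterol synthesis enzyme, with differences of 0.32 and -0.39 (limma adjusted p of 0.25 and 0.779). The median difference was 0.0613. On the C57BL/6 array this list averaged 5.01 and on the line 4.86 to 5.42.

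Of 7 genes that supply electrons or reducing power to steroid enzymes, 1 was called lower: Me1, the cytosolic malic enzyme, read 6.55 on C57BL/6 and between 5.05 and 5.58 in the line, a difference of -1.16 ± 0.19 (SE; limma adjusted p = 0.0393). That call was lost without TG3 replicate 1 or 2 or any 1 of the nonTG3 replicates (limma adjusted p of 0.076 to 0.115). Fdx1, the ferredoxin that passes electrons to CYP11A1, named here after its values were seen, differed by -0.23 and was not called (limma adjusted p = 0.481). Of 33 other steroid enzymes 1 was called lower, Rdh11, a retinol dehydrogenase, which read 6.03 on C57BL/6 and between 4.93 and 5.03 in the line (-1.03 ± 0.10, SE; limma adjusted p = 0.00739). Rdh11 read 5.03 on each nonTG3 array, and readings this alike make the SE small. The list's median difference was 0.0299, and 22 of its 33 probe sets read below the median on C57BL/6.

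Of 26 genes of receptors and signalling, limma called 0 of 28 probe sets, and 2 had an unadjusted p under 0.05. They were Gper1, a membrane oestrogen receptor, with a difference of 0.58, and one of a pair of probe sets of Prkaca, the catalytic subunit of protein kinase A, with -0.90 (limma adjusted p of 0.114 and 0.373). The other Prkaca probe set differed by -0.34. Of 27 genes of transcription control limma called 0, and 4 had an unadjusted p under 0.05. Dhh, a Sertoli cell signal to Leydig cells, and Cebpb differed by 0.54 and 0.63 (limma adjusted p of 0.197 and 0.218). Nr5a1, which encodes SF-1, was named after its values were seen and differed by 0.04 (limma adjusted p = 1).

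The cell types that could carry these RNAs were followed with marker lists. The Leydig list had 27 genes with a probe set, among them all 6 measured members, while Insl3, a defining Leydig cell hormone, had none in the annotation used here and was not analysed. Outside the members, 2 of 23 probe sets of Leydig markers were called lower and 0 higher, where 2.85% of all probe sets were called lower. The 2 were Klk1b24, a kallikrein of the testis, and 1 of a pair of probe sets of Akr1cl, an aldo-keto reductase. Klk1b24 read 6.34 on C57BL/6, 4.78, 4.66 and 5.04 on TG3 and 4.25, 4.19 and 4.15 on nonTG3, and its difference of -1.83 ± 0.15 (SE) had a limma adjusted p of 0.00549. The called probe set of Akr1cl (17223813) read 4.68 on C57BL/6 and 2.57 to 3.48 in the line (-1.73 ± 0.28, SE; limma adjusted p = 0.0404). Its call was lost in 5 of the 6 fits without 1 array, all but that without TG3 replicate 1 (limma adjusted p of 0.0901 to 0.118). The other Akr1cl probe set (17548914) read 4.18 on C57BL/6 and 3.52 to 4.01 in the line. It differed by -0.49 and was not called (limma adjusted p = 0.426). These 23 probe sets averaged 4.04 on C57BL/6 and 3.60 to 3.87 on the line, and 7 of them read below the median on C57BL/6. Their median difference was -0.0304, against -1.17 for the members. Of these 23 probe sets 14 had a difference below 0, as had 9148 of all 23493. Klk1b27 and Klk1b21, named here after their values were seen, differed by -1.13 and -1.07 and were not called (limma adjusted p of 0.872 and 0.291).

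The adrenal cortex also makes steroids, and its markers gave 0 calls by limma among 6 probe sets, with 1 unadjusted p under 0.05. All 6, Cyp11b1, Cyp11b2, Cyp21a1, Mc2r, Mrap and Nr0b1, read below the array median on C57BL/6, and they averaged 2.59 there and 2.45 to 2.73 on the line. Markers of 3 other kinds of testis cell held called probe sets. Of 26 Sertoli cell probe sets 5 were lower, of 13 of spermatocytes 5 and of 20 of spermatids and sperm 7, and 0 of each were higher. Their median differences were -0.113, -1.72 and -0.711. Over all probe sets tested 2.85% were called lower, and the median difference was 0.0366. Among the Sertoli markers Defb19, a defensin of the testis, read 9.18 on C57BL/6 and 2.84 to 2.95 in the line. Its difference of -6.26 ± 0.09 (SE; limma adjusted p = 4.89e-05) was larger than that of Cyp17a1. It read 2.95 on each nonTG3 array, and readings this alike make the SE small. Cst9, Tsx, Cst12 and Defb36 of the Sertoli list were also called lower, with differences of -4.72, -3.71, -3.43 and -2.23. Sox9, Wt1 and Amh, named here after their values were seen, differed by 0.2, 0.15 and 0.15 and were not called. Aard, Amhr2 and Rhox8, named in the same way, differed by -0.86, -0.86 and -0.63 and were not called. Of the list's 26 probe sets, 18 had a difference below 0. The Sertoli list averaged 4.52 on C57BL/6 and 3.55 to 3.78 on the line, with 10 of 26 below the median on C57BL/6, and the spermatocyte list 5.54 and 3.81 to 4.37. Spermatogonia markers gave 0 calls by limma among 17 probe sets, with 2 unadjusted p under 0.05 and a median of 0.00181. How far the makeup of the pools takes part in the lower androgen synthesis RNAs was not tested, and with 1 C57BL/6 pool a difference of the line cannot be told apart from one of that pool.

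**Figure D4:**
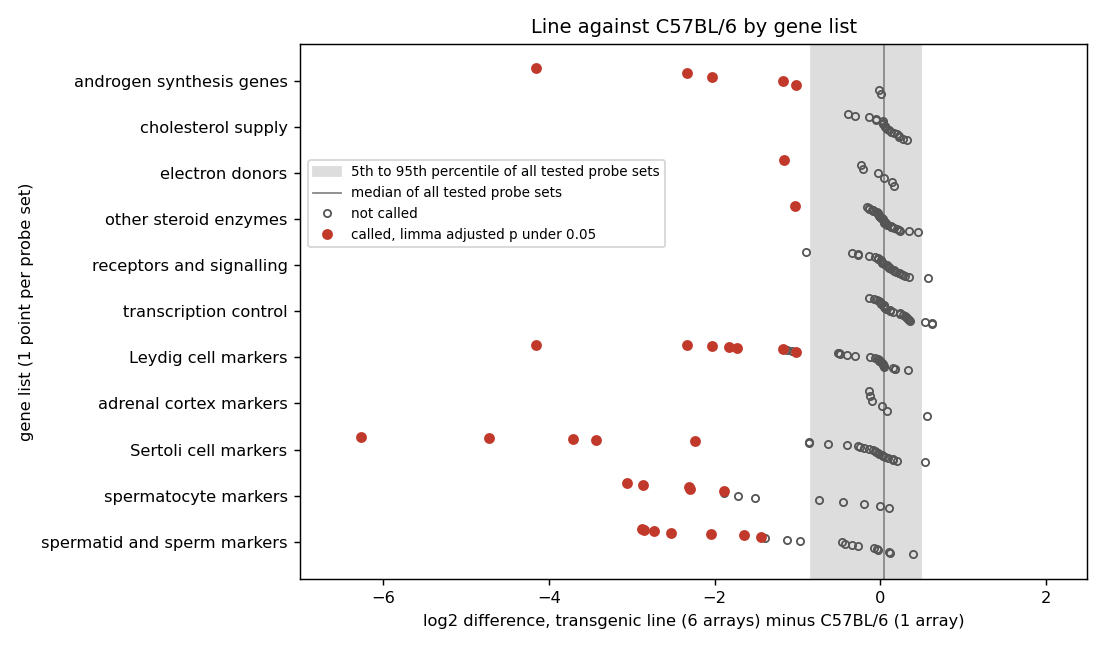
Log2 difference of the line from C57BL/6 (horizontal axis) for every probe set of the androgen synthesis genes, the pathway lists and the marker lists of testis and adrenal cells, with called probe sets filled and the others open. The grey band runs from -0.83 to 0.49, the 5th to the 95th percentile of all tested probe sets, and all 5 called androgen synthesis probe sets lie to its left.

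Markers of leukocytes (17 probe sets), smooth muscle and fibroblasts (13) and endothelium (8) gave 0 calls by limma, with 0, 0 and 1 unadjusted p under 0.05. Of 19 probe sets of the epididymal epithelium 1 was called higher, where 0.170% of all probe sets were. It was Lcn8, an epididymal lipocalin, with a difference of 0.71 (limma adjusted p = 0.0344), and the list had 0 calls with any 1 array of the line left out. Without both TG3 replicate 1 and nonTG3 replicate 3 every list above had 0 calls, with medians of -1.82 for spermatocytes, -0.786 for spermatids and sperm and -0.108 for Sertoli cells. Smooth muscle and fibroblast markers reached an average of 5.91 in TG3 replicate 1 and 5.53 in nonTG3 replicate 3, where mitochondrial RNA was low, against 4.64 to 5.01 for the line's other 4 arrays. On these 2 arrays Cyp17a1 read 2.57 and 2.19, within the range of the other 4, and Hsd3b6 read 1.71, the lowest of the line, and 2.18. Hsd3b1 was highest on TG3 replicate 1, at 2.59.

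The probe sets whose pattern over the 7 arrays was most like that of each called member were listed by the root mean square difference, after each probe set was set to its own mean over the line. For Cyp17a1 these were Rasl2-9, Cdkn3, Pmis2, Marchf11 and Prr27, at 0.229 to 0.337 log2 units. For Cyp11a1 (17517831) they were Txndc2, a thioredoxin of sperm, Slc9c1, the sperm sodium-proton exchanger, Cypt4, Slco6c1 and Cox6b2, a testis subunit of cytochrome c oxidase, at 0.0821 to 0.109. For Hsd3b6 they were Nme8, Fabp9, a fatty acid binding protein of spermatids, Ywhaq, Pfn4 and Tcp1, at 0.119 to 0.144. For Star they were Nudt21, Tmem243, Cpt2, Ccna1, the cyclin of male meiosis, and Ppp1r2-ps9, at 0.106 to 0.126. For Hsd17b3 they were Psip1, Stamos, Adam29, Art3 and Trpd52l3, at 0.0842 to 0.126. None of these 25 was another member or on the Leydig or Sertoli marker list. The called members differ in their drop from C57BL/6, from -4.16 to -1.02. Of all 23493 probe sets 670 were called lower (2.85%). Of the 30 Leydig probe sets 7 were, members included, and of the 26 Sertoli probe sets 5 were. The absence of these lists from the 25 therefore cannot show whether these RNAs go together, and no conclusion is drawn from it. The measure rests mainly on the 1 C57BL/6 array, so it describes genes with a like drop and small spread in the line.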

How the data were processed

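The deposited values are log2 intensities that the authors made with RMA and oligo in R 3.1.0, with limma also named, per the submitters' processing notes. The sources used here name no probe set filter, genome build or scan batch. Of 33604 probe sets, 23493 had 1 gene symbol in the platform annotation and were tested, 1801 had several and 8310 none. Entrez identifiers matched 23300 of those tested, and all 7 members, to RefSeq (GRCm38.p6).

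With limma 3.58.1 in R 4.3.3, group means were estimated on the 7 arrays together and moderated with eBayes (4 residual and 1.65 prior degrees of freedom). In each contrast the Benjamini-Hochberg adjustment ran over all 23493 tested probe sets, and an adjusted p under 0.05 was a call. The spread comes from TG3 and nonTG3, as C57BL/6 has 1 array. Precision is limited by the number of arrays. The fit was also run on simulated data with known changes, in which the C57BL/6 array was given the same spread as the line. That run therefore cannot test the assumption that the lone C57BL/6 array varies like the line.

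The members, lists, naming rule and alternatives were chosen with earlier results of these data known, so they are no independent support. The naming rule took all member probe sets, up to 4 called genes of each pathway list or else the 2 of smallest p, and the 5 nearest patterns of each called member. The check of replicate numbers found no sign of a pairing in the values, which cannot exclude one. Figures were drawn with matplotlib 3.10.9.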

Additional observations from a re-analysis of the deposited data

Results flagged for a closer look

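Among the 6 arrays of the line, 2 of the 7 probe sets had 1 array far from the others by Dixon's test, which chance flags in about 1 group in 20. Hsd3b1 read 2.59 on TG3 replicate 1, where mitochondrial RNA was lowest of all arrays, and 1.64 to 1.89 on the 5 others. The Cyp11a1 probe set 17517828 read 3.38 on TG3 replicate 3, against 3.09 to 3.20 on the other 5, of which 4 had exactly equal values.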

How the results depend on the processing

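The count of members called (5 in the line, 4 in TG3 and 5 in nonTG3, each against C57BL/6) moved by at most 1.5 times under other normalizations, other eBayes priors, array weights, all probe sets and an adjusted p under 0.1. With 1 array left out it was 3 to 5 in the line, 3 to 4 in TG3 and 3 in nonTG3. At an adjusted p under 0.01 it was 3 in the line and 2 in nonTG3. Without both arrays of lowest mitochondrial RNA it was 0 in all 3 comparisons, and 0 with the TG3 and C57BL/6 or the nonTG3 and C57BL/6 arrays alone. All 5 called members kept their direction in every alternative run. TG3 against nonTG3 gave 0 calls throughout. The filter on dim probe sets removed all 7, so it gave no value, and the C57BL/6 array could not be left out.

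With the replicate block 0 members, and 0 of all probe sets, were called in any comparison. Same-numbered TG3 and nonTG3 arrays did not deviate together (r of -0.449, 0.0159 and -0.403 across probe sets). The values thus gave no sign of a pairing by number. They cannot show whether same-numbered pools were collected or processed together.

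Uncalled values near 0 changed sign. The Cyp11a1 probe set 17517828 differed between line and C57BL/6 by -0.0282 after a repeated quantile normalization, -0.03 after median centring, -0.0512 after cyclic loess and -0.0265 to 0.0461 with 1 array left out, and between TG3 and nonTG3 by -0.053 to 0.0922 with 1 array left out. For 17517831 the difference between TG3 and nonTG3 was -0.0114 with array weights and -0.0442 to 0.141 with 1 array left out. For Hsd17b3 it was -0.172 to 0.0127 with 1 array left out. Hsd3b1 differed between line and C57BL/6 by -0.149 to 0.0902 with 1 array left out. Between TG3 and nonTG3 it differed by -0.0515 to 0.427 with 1 array left out and -0.0152 with both arrays of low mitochondrial RNA removed. The causes were not tested.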

Other observations

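Some genes upstream of steroid synthesis varied more among the arrays of the line than between the line and C57BL/6, and were chosen after their values were seen. Egr1, Fos and Jun encode immediate early transcription factors. In replicate order, Egr1 read 5.31, 8.49 and 7.56 on TG3, 7.35, 5.79 and 5.29 on nonTG3 and 6.71 on C57BL/6. Fos read 4.47, 7.76 and 6.38 on TG3, 6.86, 4.77 and 4.13 on nonTG3 and 5.74 on C57BL/6. Jun read 3.37, 5.57 and 4.14, then 4.51, 3.17 and 3.21, and 3.87 on C57BL/6. All 3 were highest on TG3 replicates 2 and 3 and nonTG3 replicate 1, and limma called none of them in the line (adjusted p = 1 for each).

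Hmgcs1 and Insig1, a sterol synthesis enzyme and a brake on that synthesis, were also highest on TG3 replicate 2, at 6.57 and 6.41 against 4.06 to 5.76 and 4.78 to 5.46 for the line's other 5 arrays. Pdgfra, a receptor on progenitors of Leydig cells and on fibroblasts, ran the other way and was lowest on TG3 replicates 2 and 3 and nonTG3 replicate 1: it read 4.14, 3.26 and 2.23 on TG3 and 3.54, 4.09 and 4.81 on nonTG3, with 3.44 on C57BL/6. The same 3 arrays had the line's highest average of mitochondrially encoded RNA, 11.44, 11.51 and 11.55, against 8.80, 9.98 and 8.91 on the others. Its part in these patterns was not tested.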
